A study of Homo sapiens with 18 samples.

Results

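The S100 calcium-binding proteins measured here are 8 genes, S100A4, S100A6, S100A8, S100A9, S100A10, S100A11, S100A12 and S100A13, taken by gene symbol from the 57500 genes counted in each library. RNA was sequenced from THP-1 cells, an established human monocytic leukaemia line, carrying a stably integrated lentiviral hairpin: a non-targeting one (shNT), one against the nuclear receptor NR4A2 (shNR4A2) or one against NR4A3 (shNR4A3). Cells of each line were kept in buffered medium and then either left unstimulated or given lipopolysaccharide (LPS, the bacterial cell wall component sensed through TLR4) at 2.5 µg/ml for 2 h. Each of the 6 groups held 3 libraries numbered 1 to 3, which the study describes as independent experiments, with totals of 16171161 to 23929138 counts. Every library comes from a selected, hairpin-carrying population of this 1 cell line, and each knockdown line carries 1 hairpin, so a line cannot be told apart from its hairpin's target.

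S100 proteins are small EF-hand proteins that bind calcium, pair up as dimers and then dock onto other proteins. S100A8 and S100A9 form calprotectin, an abundant cytosolic complex of neutrophils and monocytes that binds zinc and manganese and, once released, acts on TLR4, while S100A12 is a further released phagocyte member that acts on the receptor RAGE. S100A10 is the partner of annexin A2 at the plasma membrane and unusually does not need calcium to bind it, S100A11 and S100A6 bind other annexins, S100A4 binds non-muscle myosin and is tied to cell motility, and S100A13 takes part in the export of interleukin 1 alpha and fibroblast growth factor 1. The NR4A receptors are immediate early transcription factors of macrophages that bind DNA as monomers at a motif called NBRE.

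All 8 genes lie on chromosome 1 (GRCh38) within 1648446 bases. S100A10 (151982915 to 151994390, minus strand) and S100A11 (152032506 to 152047907, minus) sit 38115 bases apart, and 1309946 bases further on come S100A9 (153357854 to 153361027, plus), S100A12 (153373706 to 153375649, minus) and S100A8 (153390032 to 153391188, minus). S100A6 (153534599 to 153536244, minus), S100A4 (153543613 to 153550136, minus) and S100A13 (153618787 to 153631360, minus) complete the cluster. S100A13 shared 743 of its 2216 exonic bases (33.5%) with the gene AL162258.1 and with S100A1 on the other strand, the largest share of the 8. Which gene its counts come from is therefore less certain than for the other members. The other 7 shared 23 exonic bases or fewer with any neighbour.

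The start regions of 4 members are shown because these genes carry the results that follow: S100A8 and S100A9 are the calprotectin pair, S100A10 was the member called in most comparisons, and S100A4 was called in both knockdown lines. RefSeq windows of 300 bases (GRCh38.p14, 250 bases before the start site and the rest after it) held at least 1 entry for all 8 members, 12 windows in all. Capitals mark matches, on either strand, to the TATA motif TATAAA or to the C/EBP motif TTNNGNAA.
S100A8, chr1:153391024-153391323, minus strand: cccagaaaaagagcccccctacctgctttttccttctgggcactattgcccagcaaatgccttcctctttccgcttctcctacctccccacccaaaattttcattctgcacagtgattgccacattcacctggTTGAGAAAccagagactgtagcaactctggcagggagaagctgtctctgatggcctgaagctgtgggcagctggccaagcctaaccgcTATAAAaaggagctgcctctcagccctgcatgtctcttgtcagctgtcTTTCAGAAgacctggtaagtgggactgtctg
S100A9, chr1:153357604-153357903, plus strand: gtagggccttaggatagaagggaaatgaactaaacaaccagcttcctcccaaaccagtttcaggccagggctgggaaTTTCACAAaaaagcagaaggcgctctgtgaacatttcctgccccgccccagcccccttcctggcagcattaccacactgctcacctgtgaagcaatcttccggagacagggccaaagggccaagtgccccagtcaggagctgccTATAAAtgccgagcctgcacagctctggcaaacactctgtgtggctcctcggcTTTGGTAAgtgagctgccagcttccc
S100A10, chr1:151993810-151994109, minus strand: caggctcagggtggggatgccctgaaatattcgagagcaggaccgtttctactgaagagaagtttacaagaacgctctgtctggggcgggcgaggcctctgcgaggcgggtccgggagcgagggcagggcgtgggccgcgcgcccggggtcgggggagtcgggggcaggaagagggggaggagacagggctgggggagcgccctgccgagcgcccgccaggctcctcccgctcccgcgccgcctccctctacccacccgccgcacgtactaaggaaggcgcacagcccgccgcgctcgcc
S100A4, chr1:153545757-153546056, minus strand: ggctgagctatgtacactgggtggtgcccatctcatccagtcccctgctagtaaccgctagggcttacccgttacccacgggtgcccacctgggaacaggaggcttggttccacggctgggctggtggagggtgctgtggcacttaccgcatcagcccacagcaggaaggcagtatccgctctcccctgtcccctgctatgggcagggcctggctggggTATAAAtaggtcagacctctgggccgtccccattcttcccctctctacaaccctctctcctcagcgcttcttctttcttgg
TATAAA stood at position -29 in the windows of S100A8 and S100A9 and at -31 in that of S100A4, counting from 0 at the start base, and it was in 11.5% of all 35116 RefSeq windows. The S100A10 window held neither motif and was 71.7% G and C, against 52.3% for S100A8 and 55.7% for S100A9. TTNNGNAA was in the S100A8, S100A9 and S100A12 windows, among others, and in 36.8% of all windows. The NBRE letters AAAGGTCA were in none of the 12 windows and in 1.22% of all windows. These are letter matches in short windows and say nothing of binding.

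Levels are given per length, as counts divided by the deposited exonic length and by library size (RPKM), with library sizes scaled over all 18 libraries by the trimmed mean of M values (TMM). S100A11, S100A4 and S100A6 were the most abundant members, in that order in all 18 libraries. Over the 18 libraries S100A11 averaged 345 RPKM, rank 91 of 57500 genes, and S100A4 averaged 298 RPKM, rank 110. S100A6 followed at 155 RPKM and S100A10 at 43.4 RPKM. The calprotectin genes were lower and unequal, S100A9 at 27.3 RPKM and S100A8 at 5.21 RPKM. S100A13 averaged 2.04 RPKM and S100A12 0.85 RPKM. The order S100A8, S100A13, S100A12 was broken in LPS-treated shNR4A2 replicate 1, where S100A12 exceeded S100A13, and in replicate 2, where S100A13 exceeded S100A8. The order of the neighbours S100A10 and S100A9 was likewise reversed in replicate 1 of unstimulated and of LPS-treated shNR4A3 cells, where S100A9 was the higher. Together the 8 genes took 0.0576% to 0.0961% of a library's counts. The plot of the 8 genes by library shows these levels.

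**Figure D1:**
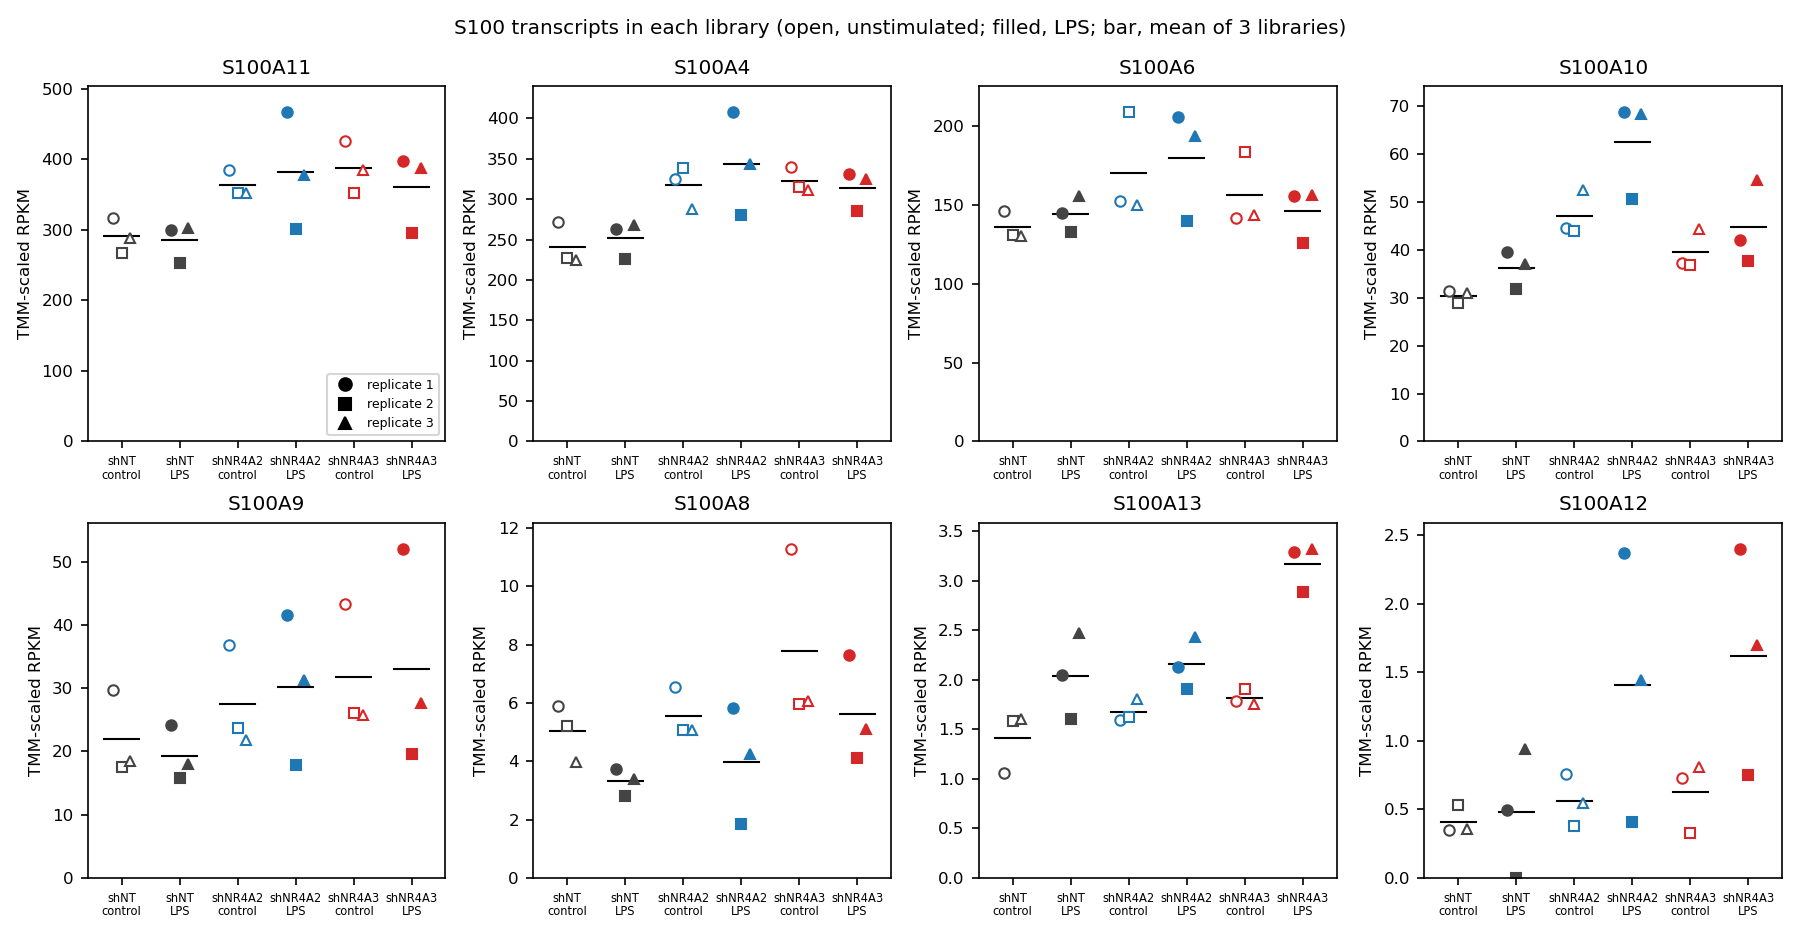
Level of each S100 gene (y axis, TMM-scaled RPKM from 0) in each of 18 libraries, grouped by line and treatment on the x axis, with a bar at the mean of 3 libraries. S100A10 in shNR4A2 cells lies above shNT in both states, and replicate 1 (circles) is the highest of its group for S100A8 and S100A9 in all 6 groups.

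The hairpins and the stimulus were checked on their own genes. NR4A2 measured 1.06, 0.75 and 0.99 RPKM in unstimulated shNT cells and 0.47, 0.42 and 0.59 RPKM in unstimulated shNR4A2 cells, a log2 fold change of -0.91 (SE 0.23, adjusted p = 0.0359), and it was lower by -1.52 (SE 0.19, adjusted p = 0.00265) with LPS. NR4A3 was lower in shNR4A3 than in shNT cells by -2.47 (SE 0.49, adjusted p = 0.00767) without LPS and by -0.82 (SE 0.08, adjusted p = 0.000556) with LPS. With the block NR4A2 was lower in shNR4A3 cells with LPS too (-0.37, SE 0.07, adjusted p = 0.00132; 0.198 without the block). Both targets were therefore reduced and not absent in these lines. LPS raised NR4A2 by 4.29 and the cytokine IL1B by 7.62 on the log2 scale in shNT cells. The 8 monocyte markers checked were all expressed enough to be tested, whereas the 8 markers of other cell types summed to 0.872 to 1.63 RPKM per library, with none at 0 in every library.

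In the unstimulated state, S100 transcripts measured higher in both knockdown lines than in shNT cells. Log2 fold changes were above 0 for all 7 testable members in shNR4A2 cells, with a median of 0.33, and for all 7 in shNR4A3 cells, with a median of 0.41, while the medians over all genes tested were -0.00103 and -0.00311. S100A12, with 3 to 10 counts in each unstimulated library, was too low to test. At an adjusted p under 0.05, 2 of 7 members (S100A4 and S100A10) were higher in shNR4A2 cells and 3 of 7 (S100A4, S100A10 and S100A11) in shNR4A3 cells. Of all genes tested, 6.45% were called in the first comparison (3.63% higher) and 7.23% in the second (3.91% higher). None of the 7 was both called and changed by 2-fold or more in any of the 4 knockdown comparisons, where 2.18% (shNR4A2) and 1.84% (shNR4A3) of genes were without LPS and 2.49% and 2.25% with LPS. Groups did not overlap, with every knockdown library above every shNT library, for 4 of 8 members in shNR4A2 cells and for 5 of 8 in shNR4A3 cells, against 12.7% and 13.1% of all genes tested.

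Same-numbered libraries of the different lines deviated together from their group means, so each of these tests was also run with the replicate number as a term of the model, called the block here. With the block, 5 of 7 members were called higher in unstimulated shNR4A2 cells (S100A4, S100A6, S100A9, S100A10 and S100A11), where 23.6% of all genes were called and 12.1% higher. In unstimulated shNR4A3 cells 5 of 7 were called higher too (S100A4, S100A8, S100A9, S100A10 and S100A11), where 14.8% of all genes were called and 8.09% higher. No member was called lower in either line under either fit. The count without the block rested on single libraries: 1 member (S100A10) was called in shNR4A2 cells without shNT replicate 2 or 3 or shNR4A2 replicate 1 or 2, and in shNR4A3 cells 0 were called without shNT replicate 2 or 3 or shNR4A3 replicate 1, and 1 without shNR4A3 replicate 3. The share of all genes called under each omission is not given here.

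S100A10, the annexin A2 partner, gave the largest log2 fold change among the members in shNR4A2 cells in both states. It measured 31.5, 28.9 and 31.1 RPKM in unstimulated shNT libraries 1 to 3, 44.6, 44.0 and 52.6 RPKM in shNR4A2 and 37.4, 36.9 and 44.4 RPKM in shNR4A3. Each knockdown library was above all 3 shNT libraries. The difference was 0.63 (SE 0.11, adjusted p = 0.00512), or 1.55-fold, in shNR4A2 cells and 0.37 (SE 0.10, adjusted p = 0.0369), or 1.30-fold, in shNR4A3 cells. The first call held whichever library was left out. The second was lost with any 1 of the 3 shNT libraries or shNR4A3 replicate 1 or 3 left out (adjusted p 0.0544 to 0.173), in a fit of all 18 libraries (0.143) and with scaling on shorter genes (0.083); with the block its adjusted p was 0.008.

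S100A4, the myosin-binding member, measured 272, 227 and 225 RPKM in unstimulated shNT libraries 1 to 3, 325, 338 and 287 RPKM in shNR4A2 and 339.8, 315 and 312 RPKM in shNR4A3. All 6 knockdown libraries exceeded all 3 controls, and the highest shNT library was replicate 1. The log2 difference was 0.40 (SE 0.11, adjusted p = 0.0454) in shNR4A2 cells and 0.42 (SE 0.09, adjusted p = 0.0143) in shNR4A3 cells, 1.32-fold and 1.33-fold. The shNR4A2 call was lost without shNT replicate 2 or 3 or shNR4A2 replicate 1 or 2 (adjusted p 0.0822 to 0.196) and with scaling on shorter genes (0.0524). The shNR4A3 call was lost without shNT replicate 2 or 3 or shNR4A3 replicate 1 (0.0555 to 0.0709). With the block the adjusted p was 0.000871 in shNR4A2 and 0.00133 in shNR4A3 cells.

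S100A11, a partner of annexin A1, measured 316, 267 and 289 RPKM in unstimulated shNT cells, 385, 352 and 351 RPKM in shNR4A2 and 426, 352 and 384 RPKM in shNR4A3. Here too no shNT library reached the lowest knockdown library. The log2 difference was 0.41 in shNR4A3 cells (SE 0.09, adjusted p = 0.0183), lost without shNT replicate 2 or 3 or shNR4A3 replicate 1 or 3 (0.0524 to 0.0864) and in the fit of all 18 libraries (0.0913). In shNR4A2 cells it was 0.33 (SE 0.10, adjusted p = 0.0674), past the threshold with the block (0.00122) and with DESeq2 (0.0333). S100A6 gave 0.33 (SE 0.13, adjusted p = 0.160) in shNR4A2 cells, past the threshold with the block (0.026), and 0.20 (SE 0.11, adjusted p = 0.307) in shNR4A3 cells, past it under neither fit.

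The calprotectin genes varied more between libraries. S100A9 measured 29.7, 17.6 and 18.5 RPKM in unstimulated shNT libraries 1 to 3, 36.8, 23.7 and 21.8 RPKM in shNR4A2 and 43.3, 26.1 and 25.8 RPKM in shNR4A3. Replicate 1 was the highest in each line, and the groups overlapped although each knockdown library exceeded the shNT library of its own number. Without the block the log2 difference was 0.33 (SE 0.23, adjusted p = 0.461) in shNR4A2 and 0.53 (SE 0.22, adjusted p = 0.192) in shNR4A3 cells; with it, the differences were 0.33 (SE 0.09, adjusted p = 0.024) and 0.53 (SE 0.09, adjusted p = 0.00486). Leaving out 1 library without the block moved them from 0.057 to 0.61 and from 0.24 to 0.81, lowest without replicate 1 of the knockdown line and highest without shNT replicate 1. The shNR4A3 difference was also called without the block when no filter was used (0.0112) and without shNT replicate 1 (0.0434).

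S100A8 measured 5.90, 5.23 and 3.99 RPKM in unstimulated shNT cells, 6.56, 5.09 and 5.06 RPKM in shNR4A2 and 11.3, 5.97 and 6.05 RPKM in shNR4A3. Only shNR4A3 libraries all lay above the shNT range. The shNR4A3 difference was 0.63 (SE 0.25, adjusted p = 0.159), and 0.60 (SE 0.17, adjusted p = 0.037) with the block. It was also called without the block when no filter was used (0.0284), and it ran from 0.26, without shNR4A3 replicate 1, to 0.78 as 1 library was left out. The shNR4A2 difference was 0.15 (95% interval -0.27 to 0.58) and was not called under either fit. For S100A13 the differences of 0.26 and 0.36 were not called under either fit, with intervals of -0.21 to 0.72 and -0.10 to 0.82.

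In the presence of LPS the same direction held for the fitted values. Calls were fewer by edgeR on each comparison's own libraries with the filter and no block. They were not fewer with the block or with no filter on low counts. All 7 testable members had a log2 fold change above 0 in each line, with medians of 0.42 in shNR4A2 and 0.34 in shNR4A3 cells against -0.00136 and -0.00853 over all genes. S100A10 alone was called in shNR4A2 cells (6.96% of all genes called, 4.31% higher). None was called in shNR4A3 cells by edgeR, where 6.45% of all genes were (3.99% higher); 5 of the 7 had an unadjusted p under 0.05 there, as 23.0% of all genes did, and DESeq2 called 1, S100A4. Groups did not overlap for 2 of 8 members in shNR4A2 (S100A4 and S100A10) and 3 of 8 in shNR4A3 cells (S100A4, S100A8 and S100A13), against 13.8% and 13.4% of all genes. With no filter on low counts edgeR called 4 members in shNR4A2 cells (S100A4, S100A9, S100A10 and S100A11) and 6 in shNR4A3 cells (S100A4, S100A8, S100A9, S100A11, S100A13 and the low S100A12), while the genes called in all went from 1085 to 1843 and from 1005 to 1839, and the S100A6 value was -0.0067 in shNR4A3 cells. With the block 5 of 7 were called higher in shNR4A2 cells, S100A4, S100A6, S100A9, S100A10 and S100A11 (28.1% of all genes called, 15.2% higher). In shNR4A3 cells 6 of 7 were, all but S100A6 (21.8% of all genes called, 12.3% higher). Replicate 2 weighed on these counts: without shNR4A2 LPS replicate 2, 5 members were called in shNR4A2 cells, without shNT LPS replicate 2 none was, and without shNR4A3 LPS replicate 2, 4 were called in shNR4A3 cells. The share of all genes called under these omissions is not given here, so the counts are not read as particular to S100 genes. The 2 lines share their shNT libraries, so these counts are not independent of each other.

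S100A10 with LPS measured 39.7, 31.8 and 37.0 RPKM in shNT libraries 1 to 3, 68.8, 50.6 and 68.5 RPKM in shNR4A2 and 42.1, 37.7 and 54.5 RPKM in shNR4A3. The shNR4A2 libraries stood clear of shNT and the shNR4A3 libraries overlapped it, replicate 2 being the lowest in each line. The shNR4A2 difference was 0.80 (SE 0.14, adjusted p = 0.0106), or 1.74-fold, and missed the threshold without shNT replicate 2 (0.71, adjusted p = 0.0531). The shNR4A3 difference was 0.31 (SE 0.14, adjusted p = 0.218), and 0.30 (SE 0.08, adjusted p = 0.0199) with the block.

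S100A9 with LPS measured 24.1, 15.8 and 18.03 RPKM in shNT cells, 41.5, 17.9 and 31.3 RPKM in shNR4A2 and 52.0, 19.6 and 27.7 RPKM in shNR4A3. Replicate 2 of each knockdown line fell inside the shNT range. The differences were 0.65 (SE 0.28, adjusted p = 0.201) and 0.78 (SE 0.31, adjusted p = 0.168), and with the block 0.62 (SE 0.12, adjusted p = 6.67e-05) and 0.72 (SE 0.13, adjusted p = 0.0017). Leaving out 1 library without the block moved these S100A9 differences from 0.35 to 0.91 and from 0.30 to 1.04. Both were highest, and called, without replicate 2 of the knockdown line's LPS libraries (adjusted p = 0.0202 and 0.0215). S100A8 with LPS was 3.74, 2.81 and 3.40 RPKM in shNT and 7.65, 4.11 and 5.10 RPKM in shNR4A3 cells, which did not overlap, a difference of 0.76 (SE 0.24, adjusted p = 0.0988) and, with the block, 0.74 (SE 0.17, adjusted p = 0.00801). S100A13 with LPS was 2.05, 1.60 and 2.47 RPKM in shNT and 3.29, 2.89 and 3.32 RPKM in shNR4A3 cells, also without overlap, a difference of 0.64 (SE 0.19, adjusted p = 0.0761), past the threshold with the block (0.0089), in the fit of all 18 libraries (0.0373) and with no filter (0.047). S100A4 differed by 0.45 and 0.32 with LPS, and S100A11 by 0.42 and 0.34, in shNR4A2 and shNR4A3 cells. By edgeR on all libraries of each comparison alone, with the filter and no block, none of these 4 was called. All were called with the block, and with no filter on low counts (adjusted p 0.00137 to 0.0472). Each was also called without replicate 2 of its knockdown line's LPS libraries (adjusted p 0.0125 to 0.025). DESeq2 called S100A4 in both lines (0.0325 and 0.0449), and the fit of all 18 libraries called it in shNR4A2 cells (0.0204). S100A6 with LPS stood at 0.02 in shNR4A3 cells (95% interval -0.21 to 0.24), the smallest of the differences from shNT.

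**Figure D2:**
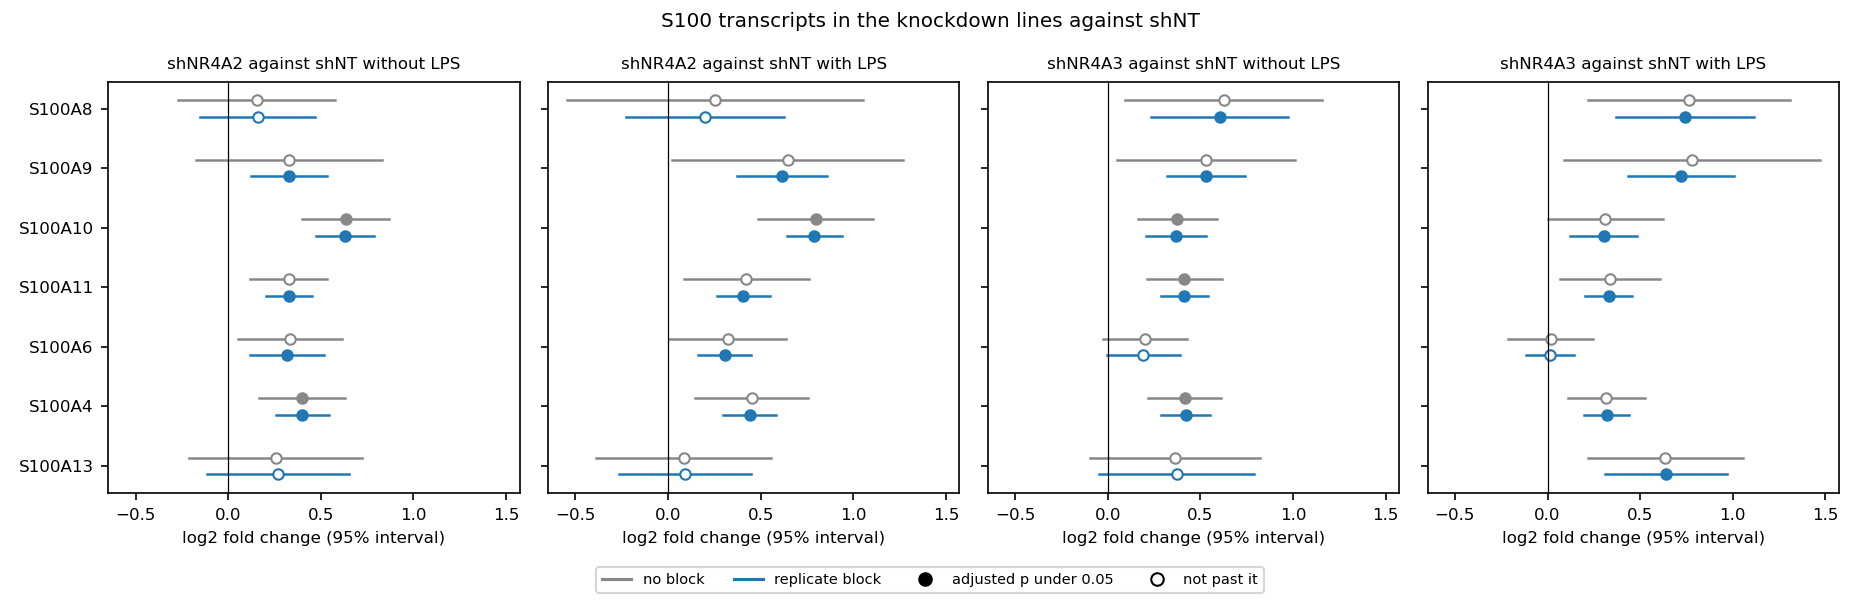
Log2 fold change of 7 S100 genes (x axis, with 95% intervals) in each knockdown line against shNT, without and with LPS, fitted without (grey) and with (blue) the replicate block; filled points have an adjusted p under 0.05. The points hardly move between fits while the intervals of S100A8 and S100A9 shorten, and S100A10 in shNR4A2 cells is farthest from 0 relative to its interval.

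Over both states and both lines, a knockdown library exceeded the shNT library of its number in 12 of 12 pairs for S100A4, S100A9, S100A10 and S100A11, in 11 of 12 for S100A13 and in 10 of 12 for S100A6, S100A8 and S100A12. Both lines are set against the same shNT library in each pair, so the 12 pairs are not independent. Summed over the 8 genes, unstimulated libraries held 727 ± 66.6 RPKM in shNT (SD, n = 3), 932 ± 54.4 RPKM in shNR4A2 and 947 ± 47.0 RPKM in shNR4A3 cells. The monocyte markers summed in the same way to 120 ± 10.5 RPKM in unstimulated shNT (SD, n = 3), 257 ± 37.4 RPKM in shNR4A2 and 337 ± 66.7 RPKM in shNR4A3 cells. LYZ, the lysozyme gene, was the most abundant of them, at 144 RPKM over the 18 libraries. Of the 8 markers, 3 were called higher in shNR4A2 and 4 in shNR4A3 cells without LPS, and 2 and 3 with LPS, where 3.63%, 3.91%, 4.31% and 3.99% of all genes were, and none lower; with the block FCGR1A was lower in shNR4A3 cells with LPS. LYZ was higher in all 4 knockdown comparisons by 1.68 to 2.29 on the log2 scale, and CSF1R, the macrophage colony-stimulating factor receptor gene, by 0.77 to 1.10. The part of these markers in the S100 results was not tested. Fewer cells of a state and less RNA per cell cannot be told apart in bulk libraries.

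The 2 knockdown lines were also compared with each other. With the filter on low counts and no block, no member was called by edgeR fitted on these libraries, nor by DESeq2, in either state, where edgeR called 3.08% of all genes without LPS and 2.33% with LPS; the count at an unadjusted p under 0.05 was 1 of 7 and 2 of 8, against 14.5% and 17.8% of all genes. With the block, S100A10 was higher in shNR4A2 than in shNR4A3 cells without LPS (0.26, SE 0.07, adjusted p = 0.0384; 11.6% of all genes called, 6.04% higher). With LPS, S100A10 (0.49, SE 0.07, adjusted p = 0.000411) and S100A6 (0.30, SE 0.06, adjusted p = 0.00265) were higher in shNR4A2 cells under the block, and S100A13 was lower (-0.55, SE 0.14, adjusted p = 0.0133), where 23.6% of all genes were called, 11.8% in each direction. S100A13 was the only member whose LPS libraries did not overlap between the lines, all 3 shNR4A2 libraries lying below (11.6% of all genes). S100A10 with LPS was also called higher in shNR4A2 cells without the block when no filter was used (0.49, adjusted p = 0.00367) and in the fit of all 18 libraries (0.48, adjusted p = 0.0438).

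LPS gave no called change in the abundant members. For S100A4, S100A6 and S100A11 the log2 changes with LPS lay between -0.10 and 0.12 in the 3 lines, and none was called under either fit. The widest 95% interval among them reached from -0.29 to 0.44, for S100A6 in shNR4A2 cells. Of all genes tested, LPS changed 24.9% in shNT, 19.3% in shNR4A2 and 28.1% in shNR4A3 cells, and the members called were 1 of 7, 0 of 7 and 1 of 7. In shNR4A2 cells 1 of 7 had an unadjusted p under 0.05 (31.8% of all genes), and DESeq2 called 1, S100A10.

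S100A8 was the member that was lower with LPS. In shNT cells it went from 5.90, 5.23 and 3.99 RPKM to 3.74, 2.81 and 3.40 RPKM. Every LPS library was below every unstimulated library, as was so for 21.0% of all genes. The log2 change was -0.60 (SE 0.20, adjusted p = 0.0442; 13.3% of all genes called lower). This call was lost with DESeq2 (adjusted p = 0.112), in the fit of all 18 libraries (0.222), and without shNT unstimulated replicate 1 or 2 or shNT LPS replicate 2 or 3 (0.0942 to 0.178). The changes in the knockdown lines were -0.50 (SE 0.32, adjusted p = 0.320) in shNR4A2 and -0.46 (SE 0.29, adjusted p = 0.265) in shNR4A3 cells, the latter -0.45 (SE 0.14, adjusted p = 0.0304) with the block (39.4% of all genes called, 20.8% lower). Leaving out 1 library moved these from -0.86 to -0.14, the latter without shNR4A2 LPS replicate 2, and from -0.74 to -0.091, the latter without unstimulated shNR4A3 replicate 1. Without shNT LPS replicate 2 it was S100A10 that was called in shNT cells (0.35, adjusted p = 0.0292). The S100A8 value was lower with LPS in all 3 same-numbered pairs of each line, on 35 to 210 counts per library.

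S100A9, its partner, showed no called change. The log2 changes of S100A9 were -0.18 in shNT, 0.13 in shNR4A2 and 0.07 in shNR4A3 cells, with 95% intervals of -0.62 to 0.26, -0.46 to 0.72 and -0.62 to 0.75, and none was called under either fit. The length-scaled ratio of S100A9 to S100A8 was 5.03, 3.36 and 4.63 in unstimulated shNT libraries and 6.45, 5.61 and 5.31 with LPS. In shNR4A2 cells it went from 5.60, 4.66 and 4.30 to 7.11, 9.71 and 7.39, and in shNR4A3 cells from 3.84, 4.37 and 4.25 to 6.80, 4.77 and 5.42. The LPS libraries stood above the unstimulated ones without overlap in each of the 3 lines. Mean ratios without and with LPS were 4.34 ± 0.873 and 5.79 ± 0.592 in shNT, 4.86 ± 0.672 and 8.07 ± 1.43 in shNR4A2, and 4.15 ± 0.280 and 5.66 ± 1.04 in shNR4A3 cells (SD, n = 3). The two-sided exact permutation test gave p = 0.1 in each line, the smallest that 3 libraries against 3 allow, so this test cannot pass 0.05 within a line.

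**Figure D3:**
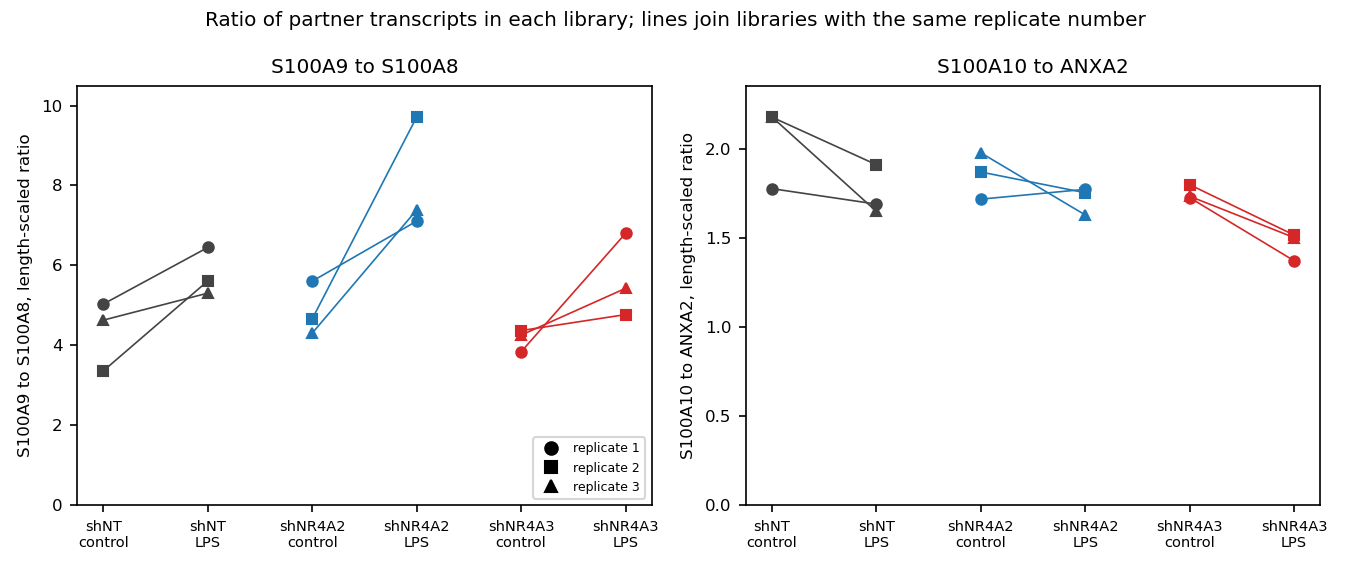
Length-scaled ratio of S100A9 to S100A8 (left) and of S100A10 to ANXA2 (right) in each library, on axes from 0, with lines joining the unstimulated and LPS libraries of 1 replicate number. The first ratio is higher with LPS in 3 of 3 pairs of every line, and the second is lower in 3 of 3 pairs of shNT and shNR4A3 cells and higher in 1 of 3 of shNR4A2 cells.

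S100A13 was called higher with LPS in shNR4A3 cells, and S100A10 in shNR4A2 and shNT cells under some fits. In shNR4A3 cells S100A13 went from 1.78, 1.91 and 1.75 RPKM to 3.29, 2.89 and 3.32 RPKM, with no overlap, as for 20.3% of all genes. The log2 change was 0.81 (SE 0.17, adjusted p = 0.0038; 13.1% of all genes called higher), or 1.75-fold, on 52 to 142 counts per library over the whole series. It was 0.54 (SE 0.23, adjusted p = 0.102) in shNT and 0.36 (SE 0.20, adjusted p = 0.254) in shNR4A2 cells. In shNR4A2 cells S100A10 went from 44.6, 44.0 and 52.6 to 68.8, 50.6 and 68.5 RPKM, with replicate 2 of the LPS libraries inside the unstimulated range. Its change was 0.41 (SE 0.14, adjusted p = 0.0679), and 0.40 (SE 0.10, adjusted p = 0.0144) with the block (30.1% of all genes called, 13.8% higher). DESeq2 (0.0498) and the fit of all 18 libraries (0.0318) also called it. Without shNR4A2 LPS replicate 2, S100A10 and S100A12 were both called there, and without shNR4A3 LPS replicate 2 S100A12 was called beside S100A13 in shNR4A3 cells. S100A12 was too low to test in either line with all libraries, so its calls give no support for a change. S100A13 did not overlap in shNR4A2 cells either (17.3% of all genes), nor S100A10 in shNT cells (18.9%). The changes of S100A10 were 0.25 (SE 0.10, adjusted p = 0.0911) in shNT and 0.19 (SE 0.14, adjusted p = 0.352) in shNR4A3 cells. With the block the shNT change was called (0.25, SE 0.08, adjusted p = 0.0297; 32.0% of all genes called, 14.6% higher) and the shNR4A3 change was not (adjusted p = 0.101).

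**Figure D4:**
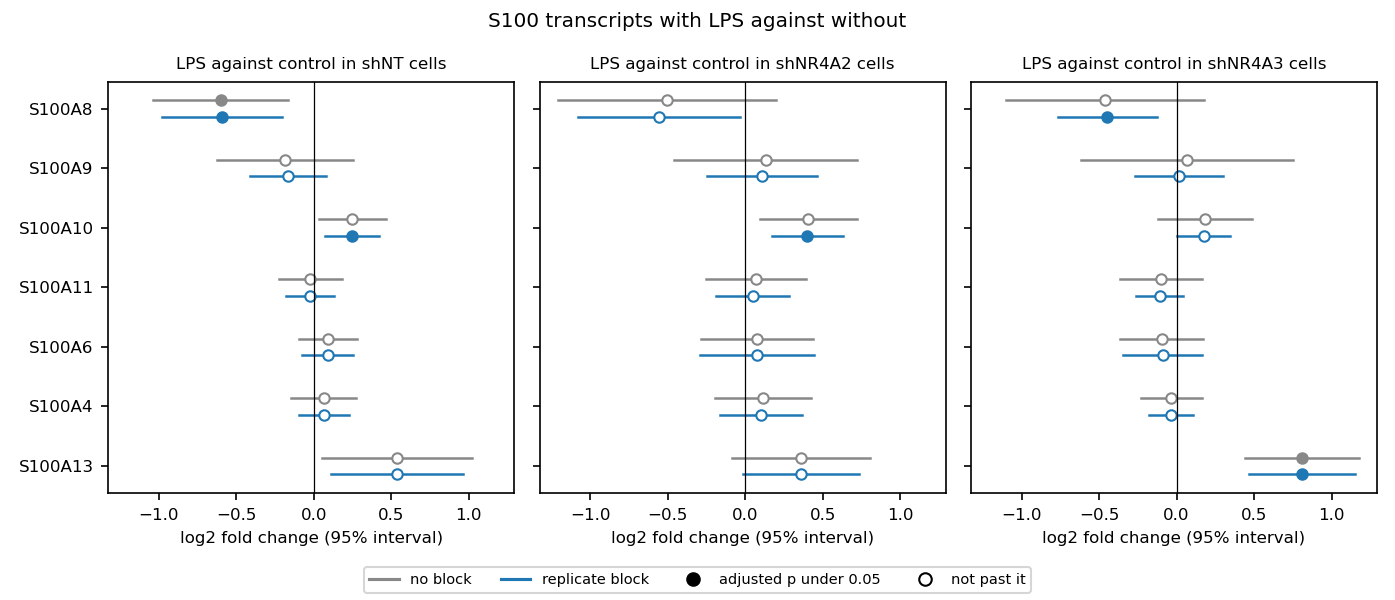
Log2 fold change of 7 S100 genes with LPS against without (x axis, with 95% intervals) in each line, fitted without (grey) and with (blue) the replicate block; filled points have an adjusted p under 0.05. S100A8 lies below 0 and S100A13 and S100A10 above 0 in all 3 lines, and S100A4, S100A6 and S100A11 stay near 0.

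S100A12 was near the counting limit. It had 4, 5 and 4 counts in unstimulated and 5, 0 and 10 counts in LPS-treated shNT libraries; the library with 0 allows up to 3 counts. In shNR4A2 cells the counts were 10, 4 and 7 without and 19, 4 and 14 with LPS, and in shNR4A3 cells they were 7, 3 and 8 without and 21, 6 and 17 with LPS. Replicate 2 was the lowest in 5 of 6 groups, and the groups overlapped in all these comparisons. With all libraries, the only test S100A12 passed the count filter for, shNR4A2 against shNR4A3 with LPS, gave -0.25 (SE 0.59, adjusted p = 0.884). It entered further tests when a library was left out, and was called with LPS in each knockdown line once replicate 2 of that line's LPS libraries was omitted. That library was its lowest with LPS in each line, and S100A12 was not tested there with all libraries. These calls therefore follow from the omission and the filter and give no support for a change. With no filter on low counts it was also called higher in shNR4A3 than in shNT cells with LPS, where 1 shNT library is at 0.

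Whether LPS acted differently in a knockdown line was tested by an interaction term. No member and no other gene passed in either line by edgeR without the block (0% of genes), and no member had an unadjusted p under 0.05. Of all genes, 365 (2.19%, shNR4A2) and 824 (5.02%, shNR4A3) had one, and DESeq2 called 2 and 10 genes, none of them a member. With the block edgeR called 8 (0.048%) and 22 (0.134%) genes, and with no filter on low counts 29 and 138, again no member. The members' interaction terms ran from -0.17 to 0.32 for shNR4A2 and from -0.19 to 0.27 for shNR4A3, and their 95% intervals reached from -0.80 to 1.17 and from -0.68 to 1.18. The interval differed by gene, the narrowest in shNR4A2 cells being -0.21 to 0.55 for S100A10 and the widest -0.79 to 0.98 for S100A8. With 3 libraries per group, every member's interval held 0, and differences inside a gene's own interval are compatible with its values.

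Much of the spread within groups followed the replicate number. Replicate 1 was the highest of its group for S100A8 and for S100A9 in 6 of 6 groups, by 0.41 and 0.51 above the group mean on the log2 scale on average. Replicate 2 was the lowest for S100A10 in 6 of 6 groups and for S100A11 in 5 of 6, by -0.16 and -0.18 on average. S100A6 showed no such order, replicate 2 being the highest in 2 groups and the lowest in 3. For S100A9 the mean deviation of replicate 1 was of the size of its knockdown differences (0.33 to 0.78).

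**Figure D5:**
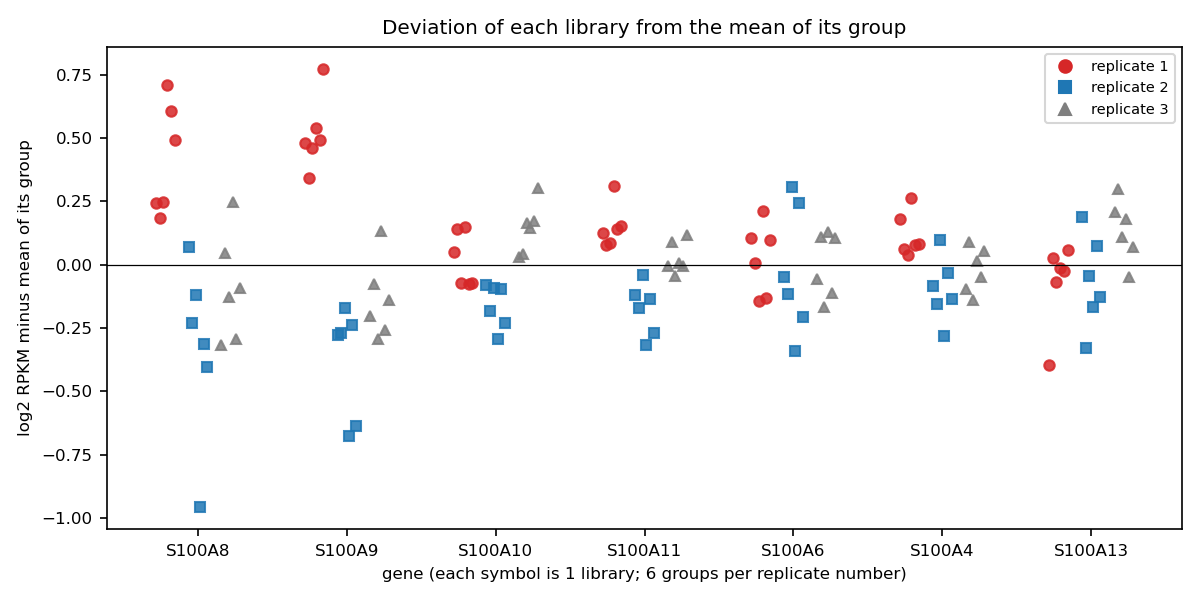
Deviation of each library from the mean of its group (y axis, log2 RPKM) for 7 S100 genes, with replicate 1 as circles, 2 as squares and 3 as triangles. All 6 circles of S100A8 and S100A9 lie above 0, and all 6 squares of S100A10 lie below 0.

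Members differed in how closely they followed each other over the 18 libraries, which share lines, treatments and replicate numbers. Pearson's r of log2 levels was 0.93 for S100A4 with S100A11 and 0.86 for S100A9 with S100A11, while S100A8 and S100A10 gave -0.01. For S100A8 with S100A9 it was 0.76, and 0.90 once group means were removed. S100A8 with S100A13 gave -0.03. Among 9332 genes outside the family averaging at least 10 CPM, the closest in pattern were C1orf54 (0.94) and COX7C (0.91) to S100A4, COPS9 (0.92) and COX5B (0.90) to S100A6, ZSWIM1 (0.95) and SNHG1 (0.91) to S100A8 and ZFAND3 (0.95) and RNF130 (0.90) to S100A9. CSTB and OSER1 (both 0.96) were closest to S100A10, DUSP22 (0.90) to S100A11, TTLL4 (0.87) and TOMM5 (0.85) to S100A12, and IRF7 (0.92) and CDK16 (0.91) to S100A13.

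The binding partners inside the cell gave context to S100A10 and S100A11. ANXA2, the annexin that S100A10 binds, measured 17.7, 13.2 and 14.2 RPKM in unstimulated shNT and 25.9, 23.5 and 26.5 RPKM in shNR4A2 cells. It was higher in the knockdown lines by 0.76 (SE 0.12, adjusted p = 0.00313) and 0.58 (SE 0.11, adjusted p = 0.00761) without LPS, and by 0.81 (SE 0.17, adjusted p = 0.0203) in shNR4A2 cells with LPS. ANXA1, bound by S100A11, was higher in the same 3 comparisons, by 0.63, 0.34 and 0.56. Of the 10 testable genes on the partner list, ANXA1 and ANXA2 were the only ones called in a knockdown comparison without the block. With LPS in shNR4A3 cells none was. Of all genes, 6.45% and 6.96% were called in shNR4A2 cells without and with LPS, and 7.23% and 6.45% in shNR4A3 cells. With the block 3 and 5 of the 10 were called in shNR4A2 cells (23.6% and 28.1% of all genes). In shNR4A3 cells 2 and 5 were (14.8% and 21.8%). The ratio of S100A10 to ANXA2 was 2.05 ± 0.232 in unstimulated shNT, 1.86 ± 0.131 in shNR4A2 and 1.76 ± 0.040 in shNR4A3 cells (SD, n = 3), with two-sided exact permutation p = 0.3 and 0.2 against shNT. With LPS it was 1.75 ± 0.141 in shNT, 1.72 ± 0.078 in shNR4A2 and 1.47 ± 0.080 in shNR4A3 cells, the last not overlapping shNT (exact permutation p = 0.1). LPS raised ANXA2 in all 3 lines by 0.44 to 0.52, and raised IL1A, whose product S100A13 helps to export, by 7.80 to 9.07.

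Among 8 receptors and co-receptors of released S100 proteins, CD36 was higher in all 4 knockdown comparisons, by 1.29 and 1.16 in shNR4A2 and by 2.41 and 2.43 in shNR4A3 cells, and CD14, the TLR4 co-receptor, was higher in both lines without LPS (1.15 and 0.87). LY96, another TLR4 co-receptor, was higher in unstimulated shNR4A2 cells (1.83, SE 0.49, adjusted p = 0.04996) and too low to test in the other 3 comparisons. LY96 thus passed the count filter only where its higher group, unstimulated shNR4A2 cells, entered, so this call gives no support for a direction. TLR4 itself was not called in any of the 4 without the block. CD33 was lower with LPS in all 3 lines, by -0.44 to -0.53. LPS raised TLR4 in shNT (1.09) and shNR4A3 cells (0.67) and ALCAM in shNR4A3 cells (0.42). AGER, which encodes RAGE, was lower with LPS in shNR4A2 cells (-0.79, SE 0.19, adjusted p = 0.011).

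Calprotectin also docks onto the phagocyte NADPH oxidase, and of its genes CYBB was higher in shNR4A3 cells in both states (1.00 and 1.45) and NCF1 in shNR4A3 cells with LPS (0.57). Of 6 myeloid transcription factors, KLF4 was higher without LPS in both lines (0.87 and 0.92) and SPI1 in shNR4A3 cells in both states (0.37 and 0.55), and CEBPD in shNR4A3 cells with LPS (0.74, SE 0.17, adjusted p = 0.03). CEBPA and CEBPE were not called in a knockdown comparison without the block and were lower with LPS in all 3 lines, CEBPA by -1.89 to -2.39. CEBPD (0.55 to 1.01) and SPI1 (0.61 to 0.79) were higher with LPS in all 3 lines, and KLF4 was lower in shNR4A2 cells (-0.81, SE 0.22, adjusted p = 0.02). None of these receptor, oxidase and transcription factor genes was called lower in a knockdown comparison without the block; with it, TLR4 was lower in shNR4A2 cells with LPS, as were CEBPA, CEBPB or CEBPE in 3 of the 4 comparisons.

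The other 13 S100 genes were scarce, 3.12 to 7.54 RPKM summed per library with S100A3 the most abundant, and 4 of them could be tested. S100A3, whose gene lies inside the span of S100A4 without shared exonic bases, was higher in shNR4A2 cells with LPS (1.28, SE 0.30, adjusted p = 0.0364). S100P was higher with LPS in shNT (0.88, SE 0.30, adjusted p = 0.0458) and shNR4A3 cells (0.98, SE 0.32, adjusted p = 0.0407) and at 0.94 (SE 0.31, adjusted p = 0.0511) in shNR4A2 cells.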

How the data were processed

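Each library had 1 deposited table of whole-number counts per gene with the exonic length; per the labels' processing notes the authors used Trimmomatic 0.36, STAR 2.5.2b and featureCounts (Subread 1.5.2) on GRCh38, with the strand setting and annotation release not given in the sources used here. Symbols were taken from GENCODE 29. Each comparison was fitted on its own libraries with edgeR 4.0.16 (filterByExpr, TMM, quasi-likelihood F test, Benjamini-Hochberg over all genes tested), and DESeq2 1.42.0, RLE factors, no filter, 1 fit of all 18 libraries, TMM on shorter genes, a replicate block and leaving out each library were alternatives. Residuals of same-numbered libraries correlated above 0.1 for every number in 10 of 11 comparisons (LPS in shNT cells excepted, 0.0598 for replicate 2), so blocked values are given beside the others. TPM was not used for levels because the median tested gene shifted by -0.23, -0.28 and -0.24 log2 TPM with LPS in shNT, shNR4A2 and shNR4A3 cells; ratios within a library are free of this. The fitting was tested on simulated data. Members, lists and named genes (all 8 members in every comparison; list genes past the limit; the 2 nearest genes in pattern) were chosen with earlier results of these data known. A few genes that these rules would name are not reported here.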

Additional observations from a re-analysis of the deposited data

How the results depend on the processing

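Values are counts of S100 members called unless said otherwise, with the number of all genes called in brackets. The main fit called 3909, 3050 and 4312 genes for LPS in shNT, shNR4A2 and shNR4A3 cells. Against shNT it called 1019 and 1085 genes in shNR4A2 and 1108 and 1005 in shNR4A3 cells, without and with LPS. Between the knockdown lines it called 480 and 362 genes. With the replicate block, 1 member was called for LPS in shNR4A2 (4751 genes), 2 in shNR4A3 (6040) and 2, S100A8 and S100A10, in shNT cells (5029). For LPS in shNT cells, residuals correlated by 0.256, 0.0598 and 0.133 for replicates 1 to 3, so replicate 2 fell short of the 0.1 limit. Against shNT with the block, 5 were called in shNR4A2 cells without (3733) and with LPS (4385). In shNR4A3 cells 5 (2267) and 6 (3401) were. Between the knockdown lines, 1 (1800) and 3 (3666) were called without and with LPS. In 1 fit of all 18 libraries, LPS counts were 0 in shNT (3517) and 1 in shNR4A2 cells (4601). Counts against shNT in that fit were 2 in shNR4A2 with LPS (1691), and 1 in shNR4A3 cells without (879) and with LPS (1210). Between the lines with LPS it called 1, S100A10 (1032). DESeq2 gave 0 and 1 for LPS in shNT (3541) and shNR4A2 cells (3106). Against shNT it gave 2 (1430) and 1 (1308) with LPS in shNR4A2 and shNR4A3 cells, and 3 in shNR4A2 cells without LPS (1287). Without a filter on low counts, 4 (1843) and 6 (1839) were called against shNT with LPS in shNR4A2 and shNR4A3 cells, and 5 in shNR4A3 cells without LPS (1467). Between the lines with LPS, 1 was called without the filter, S100A10 (1102). S100A6 then turned to -0.0067 in shNR4A3 cells with LPS. TMM on shorter genes left 1 in shNR4A2 (1004) and 2 in shNR4A3 cells (1002) without LPS. The block changed no other call of a member; S100 calls in the interactions stayed at 0 under every alternative run.

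Leaving out each library in turn gave counts of 0 to 1, 0 to 2 and 1 to 2 for LPS in shNT, shNR4A2 and shNR4A3 cells, 1 to 2 and 0 to 5 for shNR4A2 against shNT without and with LPS, and 0 to 3 and 0 to 4 for shNR4A3. The 2 for LPS in each knockdown line includes S100A12, which was not tested with all libraries. How many of all genes were called under each omission is not given here, so these counts are not read as particular to S100 genes. Log2 fold changes near 0 changed sign. With LPS in shNT cells S100A9 ran from -0.36 to 0.10 and S100A11 from -0.081 to 0.072; in shNR4A2 cells S100A4 from -0.013 to 0.26, S100A6 from -0.021 to 0.24, S100A9 from -0.15 to 0.42 and S100A11 from -0.087 to 0.23; in shNR4A3 cells S100A4 from -0.070 to 0.040, S100A6 from -0.16 to 0.031, S100A9 from -0.41 to 0.36 and S100A11 from -0.17 to 0.031. Against shNT with LPS, S100A8 ran from -0.12 to 0.60 and S100A13 from -0.068 to 0.24 in shNR4A2 cells, and S100A6 from -0.045 to 0.11 in shNR4A3 cells. Between the lines without LPS, S100A4 ran from -0.067 to 0.040, S100A6 from -0.039 to 0.26 and S100A9 from -0.47 to 0.087; with LPS, S100A4 from -0.0059 to 0.26, S100A9 from -0.43 to 0.35, S100A11 from -0.083 to 0.23 and S100A12 from -0.81 to 0.21. The shNR4A2 interaction ran from -0.084 to 0.18 for S100A4, -0.12 to 0.16 for S100A6, -0.27 to 0.45 for S100A8, -0.069 to 0.24 for S100A11 and -0.31 to 0.0051 for S100A13, and the shNR4A3 interaction from -0.14 to 0.51 for S100A8, -0.22 to 0.54 for S100A9, -0.23 to 0.043 for S100A10 and -0.16 to 0.042 for S100A11. The log2 difference of the S100A9 to S100A8 ratio against shNT ran from -0.00020 to 0.29 in shNR4A2 cells without LPS and from -0.22 to 0.072 and -0.18 to 0.074 in shNR4A3 cells without and with LPS, and that of S100A10 to ANXA2 from -0.066 to 0.041 in shNR4A2 cells with LPS. The causes were not tested. Outside the omissions, 420 member fold changes kept their direction and side of the threshold, 41 gained a call, 6 lost one and 1 changed sign.

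With 3 libraries per group and 1 hairpin per target, line and target cannot be told apart, and S100A8, S100A12 and S100A13 rest on few counts.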
